A study of Mus musculus with 9 samples.

Results

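The 8 genes described here make the small structural RNAs 7SK (Rn7sk), 7SL (Rn7s1 and Rn7s2), Y1 and Y3 (Rny1 and Rny3), the RNA of RNase P (Rpph1), the RNA of RNase MRP (Rmrp) and a vault RNA (Vaultrc5). They were taken by name from a deposited table of exon levels, which holds all 8 among 33732 gene names. The libraries came from RNA immunoprecipitation and sequencing (RIP-seq) of whole healthy liver from wild-type C57BL/6 mice aged 8 weeks. The labels put 3 libraries in the HuR RIP group (antibody against HuR), 3 in the IgG RIP group (control antibody) and 3 in the Input group (lysate RNA). Each pull-down was native, with no crosslinking named, and used the lysate of a single liver, so its RNA comes from all liver cell types together, and fewer cells of a type cannot be told apart from less RNA per cell. Input was given as the mean of its libraries in a single column, so values against it carry no test. The series set out to find the RNAs that HuR targets in liver.

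These RNAs are non-coding, and RNA polymerase III makes all of them. 7SK holds back the elongation factor P-TEFb in the nucleus. 7SL is the scaffold of the signal recognition particle, which brings ribosomes that make secreted proteins, such as those of the hepatocyte, to the endoplasmic reticulum. Y RNAs bind Ro60 and La and have been linked to RNA quality control and DNA replication. RNase P matures the 5′ end of tRNA, its relative RNase MRP takes part in ribosomal RNA processing, and vault RNAs are carried by the large vault particle. HuR, the product of Elavl1, binds U-rich and AU-rich stretches, and La binds the terminal run of U that RNA polymerase III leaves on new transcripts.

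Levels are in RPKM (read numbers per exon length and library depth), and values given for HuR 1 to 3 or IgG 1 to 3 stand in the order of those numbers. The library sizes behind them were 26.3 to 26.9 M reads (M, mega) in the HuR libraries and 15.9 (IgG 1), 26.7 and 28.8 M reads in the IgG libraries, and the Input depth is unknown. Reads are not independent molecules, so read numbers cover counting error only. HuR 3 and IgG 1 stood apart in other small RNAs: 45.9% of the reads in listed exons came from small nuclear RNA in HuR 3 (8.74% and 4.57% in HuR 1 and 2), and 18.1% from small nucleolar RNA in IgG 1 (3.60% and 4.06% in IgG 2 and 3). The column headers carry a letter, M for HuR 2 and F for HuR 3. Xist, the RNA of the inactive X chromosome, was 10.2 RPKM in HuR 2 and 0.463 RPKM in HuR 3, and the Y-linked Ddx3y was 0.0188 RPKM in HuR 2 and 2.04 RPKM in HuR 3, so these letters go against the values if they stand for male and female. Both libraries are HuR pull-downs under the labels either way. All 8 hepatocyte markers checked were above 0 in Input. Their summed level was 782 to 918 RPKM in HuR, 283 to 743 RPKM in IgG and 740.1 RPKM in Input. Summed markers of cholangiocytes were low, at 0.945 to 2.99 RPKM in HuR and 0 to 0.662 RPKM in IgG. Hepatocyte and cholangiocyte sums thus lay higher in every HuR library than in any IgG library, as did 31.3% of all genes tested. Summed markers of Kupffer cells, sinusoidal endothelium, stellate cells, leukocytes and erythroid cells overlapped between the groups. The part of cell types in the results was not tested.

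None of the 8 RNAs passed the test between HuR RIP and IgG RIP. As deposited, 3 of the 8 lay above Input in all 6 pull-down libraries, beside 15.3% of all genes tested. Rmrp lay 5.68-fold to 45.9-fold above Input in the 6 libraries, and the average of IgG rests on IgG 1 (20.4-fold with it, 7.71-fold without it). Rpph1 and Vaultrc5 were the others above Input in all 6. With levels rescaled outside the ribosomal repeat, Vaultrc5 lay above Input in 2 of the 3 HuR libraries. 7SL had the highest mean level of the 8 in both groups, although Rmrp lay above either 7SL gene in HuR 2. Within 7SL, the level of the 3′ end over that listed for the whole RNA was higher in every HuR library than in any IgG library. This ratio was chosen after the values were seen, and no share over all genes is given for such ratios. Its exact permutation p was 0.1 for each 7SL gene, the smallest that 3 against 3 libraries allow.

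7SL was covered by 2 of the 8 genes. Rn7s1 (chr12:69159295-69159594, plus strand, GRCm38) and Rn7s2 (chr12:69361182-69361481, minus strand) are annotated with the same sequence, identical over all 300 bases, so reads cannot be assigned to one or the other. Other listed exons also cover 2 stretches of it. The first (bases 143 to 212) lies in the middle of the RNA, within the part of the particle that recognises signal sequences. The second (bases 224 to 300) is its 3′ end, part of which pairs with the 5′ end in the domain that binds SRP9 and SRP14. Rn7s1 had 21044, 5275 and 10039 RPKM in HuR 1 to 3, against 15924, 26737 and 10666 RPKM in IgG 1 to 3 and 8294 RPKM in Input. Rn7s2 had 23712, 5763 and 11083 RPKM in HuR 1 to 3, against 17221, 29069.7 and 11626 RPKM in IgG 1 to 3 and 9228 RPKM in Input. HuR 2 was the lowest and IgG 2 the highest of the libraries for both, and the groups overlapped. By limma, the log2 fold change of HuR over IgG was -0.68 (SE 1.05, adjusted p = 0.644) for Rn7s1 and -0.65 (SE 1.05, adjusted p = 0.659) for Rn7s2.

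7SK lay below 7SL per length in every library. Rn7sk (chr9:78175303-78175633, minus strand) ends in short runs of U, in capitals in its last 60 bases.
Rn7sk, bases 272 to 331: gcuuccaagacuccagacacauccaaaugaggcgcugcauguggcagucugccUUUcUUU
Its level was 1204, 1111 and 552 RPKM in HuR 1 to 3, against 1270.3, 216 and 745 RPKM in IgG 1 to 3 and 341 RPKM in Input. IgG 2 was the only library below Input, and the groups overlapped. The log2 fold change was 0.62 (SE 1.10, limma adjusted p = 0.691). Without IgG 2 it was -0.11, so its direction rests on that library.

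The Y RNAs were the rarest of the 8, with at most 151 reads a library. Both share the layout of this family, a stem made by the RNA's own ends and a loop between them, and both end in a run of 4 U, in capitals.
Rny1, chr6:47788069-47788180, minus strand: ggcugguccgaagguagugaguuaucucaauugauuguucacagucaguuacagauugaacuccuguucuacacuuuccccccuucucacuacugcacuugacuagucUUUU
Rny3, chr6:47781624-47781725, plus strand: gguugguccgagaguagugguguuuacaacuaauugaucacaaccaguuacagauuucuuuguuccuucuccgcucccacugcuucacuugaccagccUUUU
Aligned end to end, they were identical in 81 of 112 columns (72.3%), and the 2 genes lie near each other on opposite strands. Rny1 had 0, 33.6 and 13.6 RPKM in HuR 1 to 3, against 28.2, 1.34 and 0.929 RPKM in IgG 1 to 3 and 4.93 RPKM in Input. These are 0, 99 and 41 reads in HuR and 50, 4 and 3 reads in IgG. The count of 0 in HuR 1 allows a level of up to 1.01 RPKM (3 reads). Each group thus had high and low libraries, and the log2 fold change of 0.56 (SE 1.69, limma adjusted p = 0.824) turned to -0.67 without HuR 2, -0.03 without HuR 3, -0.04 without IgG 2 and -0.22 without IgG 3. Rny3 was more even. It had 55.6, 21.6 and 31.7 RPKM in HuR 1 to 3, against 16.1, 6.62 and 20.4 RPKM in IgG 1 to 3 and 18.8 RPKM in Input. Every HuR library lay above every IgG library, by little between HuR 2 and IgG 3. Its reads numbered 151, 58 and 87 in HuR and 26, 18 and 60 in IgG. Rny3 averaged 36.3 ± 17.5 RPKM in HuR and 14.4 ± 7.05 RPKM in IgG (SD, n = 3 each), and its log2 fold change was 1.34 (SE 0.98), with a limma adjusted p of 0.333. With sample quality weights the limma adjusted p was 0.0438, but there 2296 of the 5510 genes tested were called higher. Over all alternatives the adjusted p ranged from 0.0438 to 0.899.

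RNase P RNA and RNase MRP RNA are related ribozymes that share most of their proteins. Rpph1 (chr14:50807449-50807767, minus strand) lies over an exon of the protein-coding gene Ccnb1ip1 on the same strand. The bases of Rpph1 that this exon covers (36 to 268) are shown, since their reads were divided between both genes.
Rpph1, bases 36 to 268: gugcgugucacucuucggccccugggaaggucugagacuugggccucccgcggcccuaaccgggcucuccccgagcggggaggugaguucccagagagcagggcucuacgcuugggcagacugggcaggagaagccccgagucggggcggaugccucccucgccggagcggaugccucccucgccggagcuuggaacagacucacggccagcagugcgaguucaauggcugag
Rpph1 had 893, 1793 and 610.3 RPKM in HuR 1 to 3, against 655, 283 and 292 RPKM in IgG 1 to 3 and 154 RPKM in Input. All 6 pull-down libraries lay above Input, and only IgG 1 reached into the HuR range. The mean was 1099 ± 618 RPKM in HuR and 409.8 ± 212 RPKM in IgG (SD, n = 3 each), and the log2 fold change of 1.39 was the highest of the 8 RNAs (SE 1.08, limma adjusted p = 0.355). Putting back the reads that went to Ccnb1ip1 about doubled the level in every library and left the contrast as it was.

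Rmrp (chr4:43492788-43493058, minus strand) is covered whole by AL732506.1 on the same strand, and in part by an exon of Ccdc107 on the opposite strand. The part shared with Ccdc107 (bases 36 to 159) is in capitals.
Rmrp: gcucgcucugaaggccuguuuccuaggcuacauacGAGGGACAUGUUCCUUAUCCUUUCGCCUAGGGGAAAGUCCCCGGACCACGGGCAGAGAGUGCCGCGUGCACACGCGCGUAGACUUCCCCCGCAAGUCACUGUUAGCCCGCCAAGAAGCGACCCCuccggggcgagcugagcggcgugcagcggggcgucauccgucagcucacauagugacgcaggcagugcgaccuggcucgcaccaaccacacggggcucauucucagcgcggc
The Rmrp line alone held 33.6% to 34.4% of the reads at the locus, as 3 genes divided them. Rmrp had 6039, 7172 and 3547 RPKM in HuR 1 to 3, against 11861, 2517 and 1467 RPKM in IgG 1 to 3 and 258 RPKM in Input. IgG 1 was the highest of all and the other 2 IgG libraries the lowest pull-downs. The means were close, 5586 ± 1854 RPKM in HuR and 5281 ± 5722 RPKM in IgG (SD, n = 3 each), and the log2 fold change was 0.60 (SE 1.10, limma adjusted p = 0.697). It was 1.48 (adjusted p = 0.159) without IgG 1 and -0.03 without IgG 3.

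Vaultrc5 (chr18:36801866-36802008, plus strand) is a vault RNA of 143 bases. Its level was 909, 303 and 383 RPKM in HuR 1 to 3, against 1978, 889.6 and 526 RPKM in IgG 1 to 3 and 134 RPKM in Input. IgG 1 was again the highest, HuR 2 and 3 were the lowest pull-downs, and HuR 1 lay among the IgG libraries. Its log2 fold change was -1.04 (SE 1.09, limma adjusted p = 0.487), the lowest of the 8. Under a trimmed-mean (TMM-like) scaling it was -2.67 with a limma adjusted p of 0.0427, but there 342 genes were called lower, against 7 as deposited. Over all alternatives the adjusted p ranged from 0.0427 to 0.752. The log2 fold change was -0.53 without IgG 1.

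**Figure D1:**
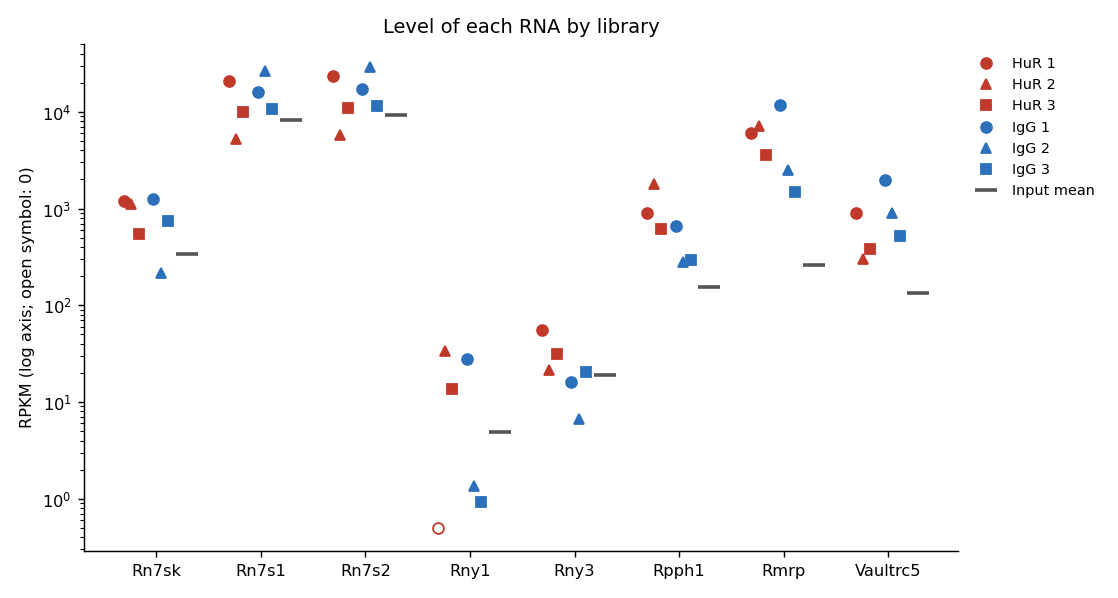
RPKM of the 8 RNAs on a log axis, with 1 symbol per library: HuR in red, IgG in blue and the Input mean as a grey dash; the open symbol marks Rny1 at 0 in HuR 1. Rn7s1 and Rn7s2 have the highest means, although Rmrp (7172 RPKM) lies above both in HuR 2 (5275 and 5763 RPKM); Rny1 and Rny3 lie lowest, and Rny3 is the RNA whose HuR libraries (21.6 to 55.6 RPKM) all lie above its IgG libraries (6.62 to 20.4 RPKM).

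Setting HuR pull-downs against IgG pull-downs separates RNA that came with HuR from RNA that came with any antibody. All 8 RNAs passed the filter on low levels. limma called 0 of the 8 higher and 0 lower, and 0 were at an unadjusted p under 0.05. Over all 5510 genes tested, 37 (0.672%) were called higher and 7 (0.127%) lower. These counts moved with single libraries, to 724 higher without IgG 1 and 0 without IgG 2. Of the 8 RNAs, 5 had a positive log2 fold change, with a median of 0.58, beside a median of 0.92 over all genes and 79.1% of them positive. Relative to that median, Rpph1 (0.47) and Rny3 (0.42) lay above it, and Rn7sk (-0.30), Rmrp (-0.32), Rny1 (-0.36), Rn7s2 (-1.57), Rn7s1 (-1.60) and Vaultrc5 (-1.96) below it. Groups that did not overlap were found for 1 of the 8, Rny3. Over all genes, 31.3% had every HuR library above every IgG library and 3.48% every HuR library below, so a count of 1 is no result about these RNAs.

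The direction of several RNAs turned with the scaling between libraries. With libraries centred at their medians, Rn7sk stood at -0.49, Rmrp at -0.50 and Rny1 at -0.54, while Rny3 and Rpph1 stayed positive. Under the TMM-like scaling all 8 were negative, Rny3 at -0.25 and Rpph1 at -0.24 included. Rn7s1 and Rn7s2 were negative under every setting but quantile normalization, where they were 0.25 and 0.22. Vaultrc5 was negative under every alternative run.

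**Figure D2:**
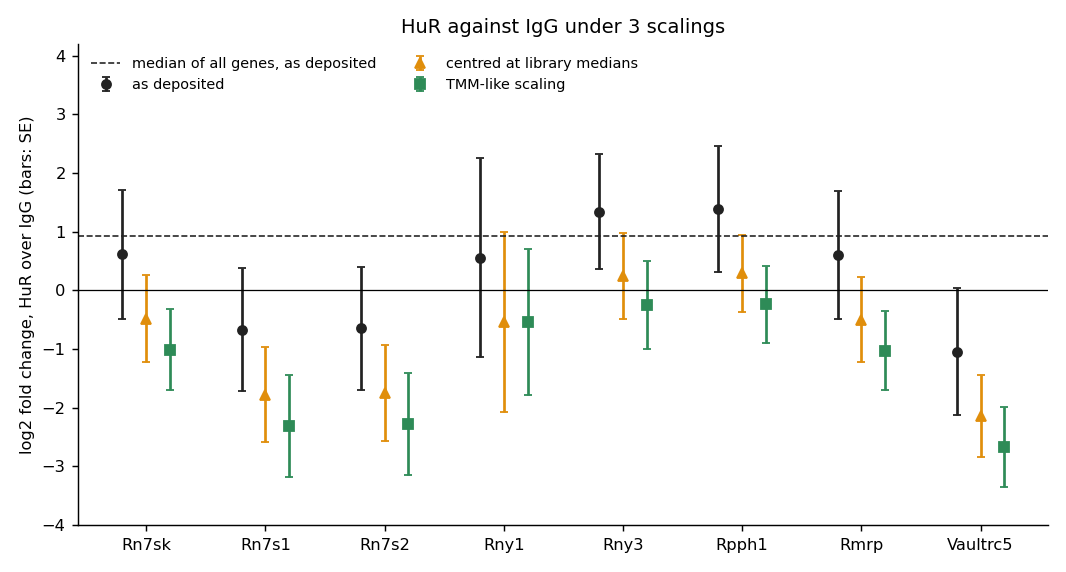
log2 fold change of HuR over IgG for the 8 RNAs with its SE from limma, as deposited (black), centred at library medians (orange) and under TMM-like scaling (green); the dashed line marks the median of all genes as deposited (0.92). Rny3 and Rpph1 lie above the dashed line as deposited and below 0 under TMM-like scaling, and Vaultrc5 is the lowest under each of the 3 scalings.

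Set against the Input mean, Rmrp lay higher in both pull-downs than the median gene did. Values are differences of log2(RPKM + 0.5) from the Input mean. Rmrp was higher by 4.54, 4.79 and 3.78 in HuR 1 to 3 and by 5.52, 3.28 and 2.50 in IgG 1 to 3. All 6 libraries lay above Input, and the means were 4.37 ± 0.53 in HuR and 3.77 ± 1.57 in IgG (SD, n = 3 each). On the linear scale Rmrp was 23.4, 27.8 and 13.7 times the Input level in HuR 1 to 3, and 45.9, 9.74 and 5.68 times in IgG 1 to 3. It averaged 21.6 times Input in HuR and 20.4 times in IgG, or 7.71 times in IgG without IgG 1. Of the 5510 genes, 65 had a higher mean difference in HuR and 199 in IgG. The median over all genes was 1.22 in HuR and 0.24 in IgG, so Rmrp lay above it in all 6 libraries.

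Rpph1 averaged 2.69 ± 0.79 in HuR and 1.30 ± 0.69 in IgG, and Vaultrc5 averaged 1.81 ± 0.83 in HuR and 2.86 ± 0.96 in IgG (SD, n = 3 each). In HuR 2 Vaultrc5 stood at 1.18, just below the median of all genes. For Vaultrc5, 1365 of the 5510 genes had a higher mean in HuR and 361 in IgG, and for Rpph1 428 did in HuR and 670 in IgG. Rn7sk averaged 1.40 in HuR and 0.79 in IgG. Rn7s1 averaged 0.32 in HuR and 0.997 in IgG. Rny3 was above Input in all 3 HuR libraries and in 1 of the 3 IgG libraries, at means of 0.82 in HuR and -0.52 in IgG. Rny1 ranged from -3.44 to 2.65 in HuR and from -1.93 to 2.40 in IgG.

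In all, 5 of the 8 RNAs were above Input in every HuR library, 5 in every IgG library and 3 in all 6 (Rpph1, Rmrp and Vaultrc5). Over all genes tested these shares were 68.9% in HuR, 20.7% in IgG and 15.3% in all 6. The 3 genes of the ribosomal repeat took 31.8% to 47.2% of listed reads in HuR, 31.2% to 64.8% in IgG and 73.4% in Input. With levels rescaled to the reads outside these genes, 2 RNAs (Rpph1 and Rmrp) stayed above Input in every HuR library and 3 (Rpph1, Rmrp and Vaultrc5) in every IgG library. Vaultrc5 was then above Input in 2 of the 3 HuR libraries. Rmrp then stood at 3.35 in HuR and 2.95 in IgG. No share over all genes is given for the rescaled counts, so they are no result about these RNAs.

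**Figure D3:**
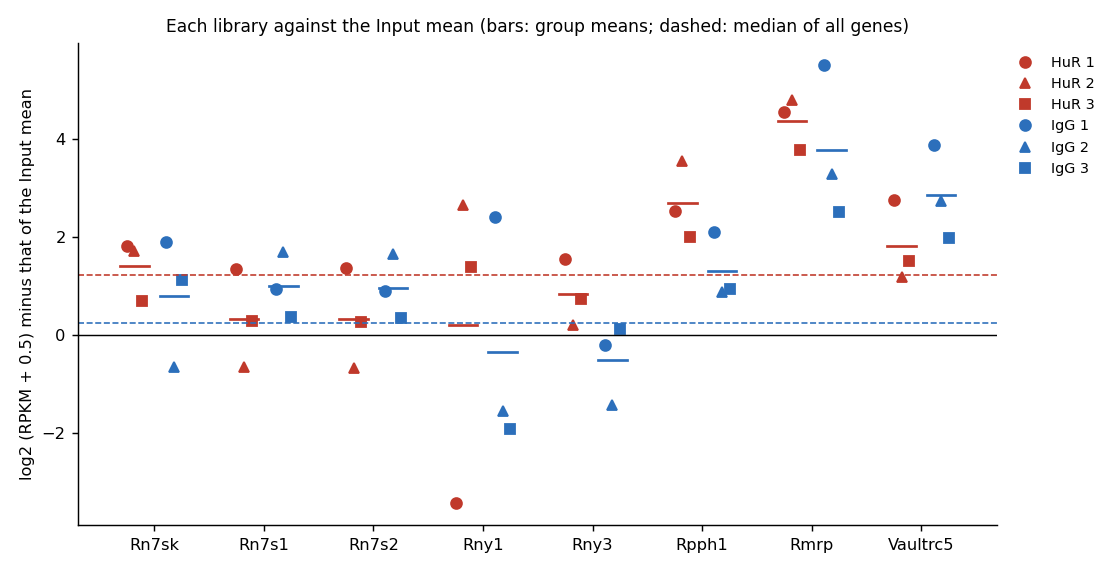
Difference of log2(RPKM + 0.5) from the Input mean for each RNA and library, HuR in red and IgG in blue, with bars at the group means and dashed lines at the median of all 5510 genes (1.22 in HuR, 0.24 in IgG). Rmrp is the highest in both groups, at means of 4.37 in HuR and 3.77 in IgG, and Rny1 has the widest spread.

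The level of the 3′ end of 7SL over that of the whole RNA did not overlap between the groups. Annotated short exons cover its middle and its 3′ end, and each has a level of its own in the table, which can be set against that of the whole RNA in the same library, with no scaling between libraries. The level of the whole RNA is that of the Rn7s1 or Rn7s2 line, which spans these exons and divides reads with them. The level of the 3′ end (bases 224 to 300 and 2 bases beyond) over that of the whole of Rn7s1 was 2.41, 2.32 and 2.60 in HuR 1 to 3, against 1.80, 1.88 and 1.83 in IgG 1 to 3 and 1.98 in Input. In Rn7s2 the same ratio was 2.11, 2.11 and 2.33 in HuR 1 to 3, against 1.65, 1.71 and 1.67 in IgG 1 to 3 and 1.77 in Input. Every HuR library lay above Input, and every IgG library below it. The HuR ratio was 1.33-fold the IgG ratio for Rn7s1 and 1.30-fold for Rn7s2 (exact permutation p = 0.1 each, two-sided, the smallest that 3 against 3 libraries allow, and 0.2 adjusted over 8 ratios). As both genes have the same sequence, these are not independent.

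At the middle of 7SL (bases 143 to 212) the groups overlapped. Its ratio to the whole of Rn7s1 averaged 3.37 ± 0.12 in HuR and 3.37 ± 0.20 in IgG (SD, n = 3 each; exact permutation p = 1). The 3′ end over the middle was 0.725 ± 0.015 in HuR and 0.546 ± 0.020 in IgG for Rn7s1, and 0.695 ± 0.013 in HuR and 0.511 ± 0.018 in IgG for Rn7s2 (SD, n = 3 each). In Input it was 0.666 for Rn7s1 and 0.630 for Rn7s2. The log2 difference between groups for the 3′ end of Rn7s1 was 0.41, and 0.35 to 0.45 when libraries were left out, without HuR 3 and IgG 1 together included. The same ratio for the shared stretches of Rpph1 (1.36 in HuR and 1.35 in IgG) and Rmrp (2.11 in HuR and 2.09 in IgG) lay near the limit that the lengths alone set when reads are divided (1.37 and 2.19), so it could not show a difference. These ratios were chosen after the values were seen. No share over all genes is given for such ratios, so how often their groups do not overlap is unknown. A read that touches 2 listed exons is divided between them, and read length, which the sources used here do not give, also moves such ratios and was not tested.

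**Figure D4:**
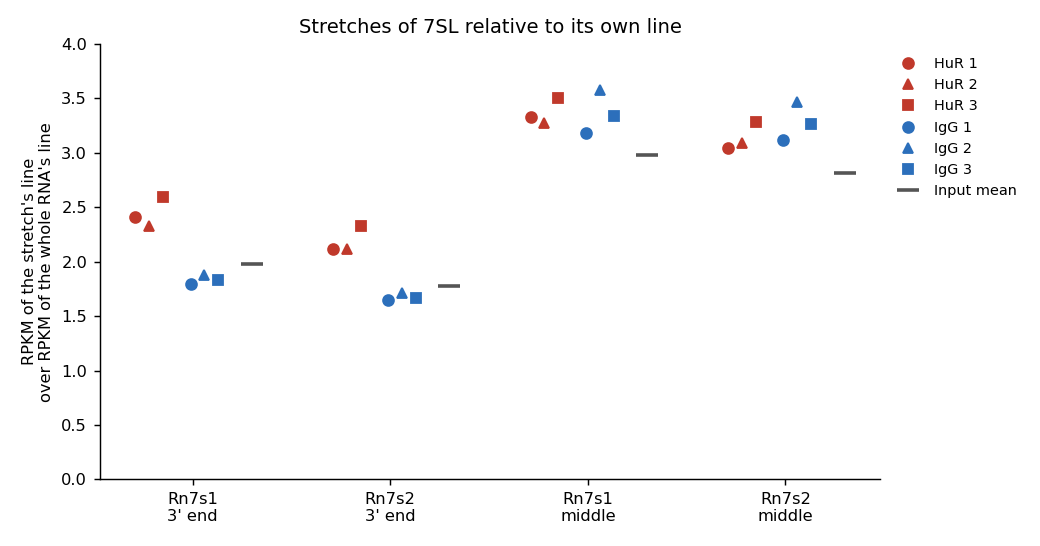
Level of each stretch over that of the whole RNA's own line in the same library. HuR is in red, IgG in blue and the Input mean is a grey dash. The axis starts at 0. At the 3′ end of 7SL all 3 HuR libraries lie above Input and all 3 IgG libraries below it (2.32 to 2.60 against 1.80 to 1.88 in Rn7s1), while the middle of 7SL overlaps between groups.

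Near-identical copies of 7SK and 7SL are annotated across the genome. For 7SK, 31 other listed genes matched Rn7sk at 80% identity or more over at least 50% of its length, and they held 54.7% to 65.1% of the family's reads in the pull-down libraries. Gm24447 on chromosome 15, identical to Rn7sk over the 72.8% of it that aligned, had 1198, 1005 and 385 RPKM in HuR 1 to 3, against 1216, 212 and 753 RPKM in IgG 1 to 3 and 292 RPKM in Input. These values follow those of Rn7sk library by library, so the level of Rn7sk alone is uncertain. Adding the copies to each RNA left all 8 short of the threshold. Rny1 moved most, to a log2 fold change of 2.26 (limma adjusted p = 0.140) from its 0.56 alone. What was added to Rny1 includes the Fpgt line. In HuR 1, where Rny1, Gm24203 and Gm26329 were at 0, all that was added came from the Fpgt line (0.748 RPKM). For 7SL, 10 copies held 11.1% to 11.3% of the family's reads in HuR and 12.7% to 14.9% in IgG. RNase P had 3 copies (Rprl1, Rprl2 and Rprl3) with at most 0.927% of the family's reads, the vault RNA 1, and Y3 and RNase MRP 0. Y1 had 2 (Gm24203 and Gm26329), and a transcript of the gene Fpgt also matched it, on the opposite strand and at 81.2% identity.

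Levels of single copies were also set against their own member. Of the 12 copies of 7SL or 7SK that averaged 5 RPKM or more in the pull-downs, 1 was lower relative to its member in every HuR library than in any IgG library and 1 was higher. Over all 5510 genes, 0.49% were lower relative to Rn7s1 in this way and 36.4% higher. These shares apply to the 8 copies of 7SL only, as the 4 of 7SK were set against Rn7sk. Rn7s1 itself stood at -1.60 relative to the median log2 fold change of all genes. The shares are thus no measure of how rare a lower copy is. Rn7s6 (chromosome 6), 98.6% identical to Rn7s1 over 71.3% of it, had 2158, 411 and 1109 RPKM in HuR 1 to 3, against 2356, 7775 and 2546 RPKM in IgG 1 to 3 and 1314 RPKM in Input. As a percentage of Rn7s1 this is 10.3%, 7.79% and 11.04% in HuR 1 to 3, against 14.8%, 29.1% and 23.9% in IgG 1 to 3 and 15.8% in Input. HuR thus lay below IgG throughout, with a log2 difference of the ratios of -1.18 (exact permutation p = 0.1, the smallest possible, 0.48 adjusted over the 12 copies). Gm22701 (chromosome 8), 87.6% identical, went the other way at a low level. It was 1.48%, 0.429% and 0.976% of Rn7s1 in HuR 1 to 3, against 0.206%, 0.279% and 0.278% in IgG 1 to 3 and 0.328% in Input, a log2 difference of 1.75 (exact permutation p = 0.1, 0.48 adjusted). Gm26461 (chromosome 9) overlapped between groups, at 13.7% to 18.6% of Rn7s1 in HuR and 7.64% to 15.3% in IgG. These 2 copies were chosen after their values were seen.

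**Figure D5:**
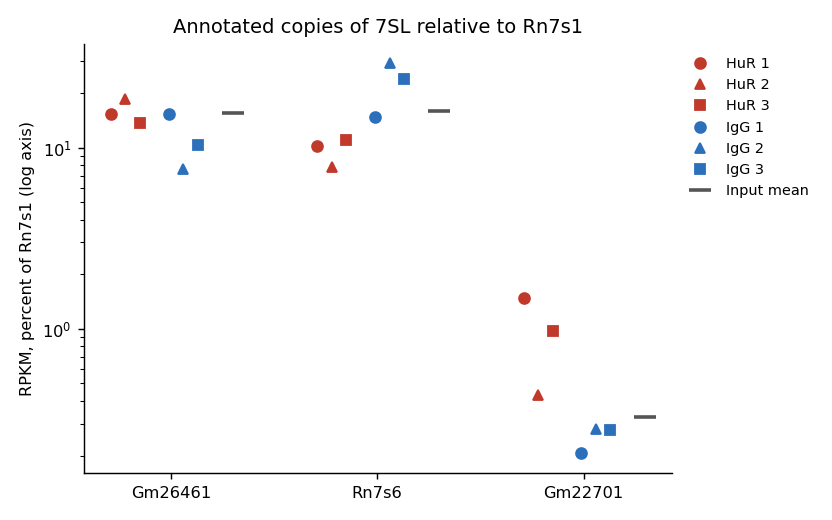
RPKM of 3 annotated copies of 7SL as a percentage of the RPKM of Rn7s1 in the same library, on a log axis, HuR in red, IgG in blue and the Input mean as a grey dash. Rn7s6 lies lower in every HuR library (7.79% to 11.04%) than in any IgG library (14.8% to 29.1%), Gm22701 lies higher in every HuR library, and Gm26461 overlaps.

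Ratios between the RNAs within a library ask whether their balance differed between antibodies. Of 7 ratios, 2 did not overlap. Over all genes, 31.3% had every HuR level above every IgG level and 3.48% every HuR level below. No such share is given for ratios between pairs of RNAs, so a count of 2 is no result about their balance. Vaultrc5 over Y RNA (Rny1 plus Rny3) was 4.02, 2.45 and 3.07 on the log2 scale in HuR 1 to 3, against 5.47, 6.72 and 4.59 in IgG 1 to 3 and 2.47 in Input. Every HuR library held less vault RNA per Y RNA than any IgG library, with a difference of -2.42 (exact permutation p = 0.1, two-sided, the smallest that 3 against 3 allow, and 0.35 adjusted over 7 ratios). Rn7sk over Y RNA was 4.42, 4.32 and 3.59 in HuR 1 to 3, against 4.83, 4.68 and 5.09 in IgG 1 to 3 and 3.82 in Input, a difference of -0.76 (exact permutation p = 0.1, 0.35 adjusted). Both rest on the few reads of the Y RNAs. The other 5 ratios overlapped, with exact permutation p of 0.2 to 0.8. Rmrp over Rpph1 was 2.43 ± 0.39 in HuR and 3.22 ± 0.93 in IgG (SD, n = 3 each), above the 0.75 of Input in every library.

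Together the 8 RNAs took 3.68%, 2.24% and 1.28% of the reads in listed exons in HuR 1 to 3, against 2.61%, 3.996% and 1.64% in IgG 1 to 3 and 1.21% in Input. The groups overlapped. Rmrp alone took 0.379%, 0.696% and 0.159% in HuR 1 to 3, against 0.595%, 0.154% and 0.0869% in IgG 1 to 3 and 0.0154% in Input. With the reads that other listed genes took at these loci put back, the share was 8.64%, 5.39% and 3.14% in HuR and 6.01%, 9.21% and 3.64% in IgG, against 2.60% in Input.

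The sequences held none of the U-rich and AU-rich motifs searched, although the Y RNAs are richer in U than the median small RNA. The motifs searched, on the RNA's own strand, were a run of 5 U (UUUUU), a run of 7 U (which contains it), the pentamer AUUUA and the heptamer UUUAUUU. None of the 8 RNAs held any of them. Among 4433 annotated small RNA transcripts of 90 to 350 bases, 19.4% held the run of 5 U, 1.53% the run of 7 U, 8.41% the pentamer and 0.835% the heptamer. The longest run of U was 4 in Rny1, Rny3 and Vaultrc5, at the 3′ end of each, 3 in Rn7sk and Rmrp and 2 in 7SL and Rpph1. A run of 4 or more occurred in 40.3% of the small RNA transcripts. GC content ran from 43.8% in Rny1 to 67.1% in Rpph1, with a median of 45.8% over the small RNA transcripts. U content was 35.7% in Rny1 and 35.3% in Rny3, above the median of 26.7% over the small RNA transcripts. Among the others it ran from 16.0% in Rpph1 to 25.9% in Vaultrc5. A missing match says only that these letters are not in these sequences.

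The mRNAs of the proteins that bind or make these RNAs were mostly too low to test. Of 78 such gene names, 72 were in the table and 17 passed the filter, and 0 of the 17 were called higher and 0 lower, beside the 0.672% and 0.127% over all genes. Trove2 is a second name of Ro60 and Srpra of Srpr, so the names stand for fewer genes. Their median log2 fold change was 0.52, below the 0.92 of all genes, and 15 of 17 were positive, beside 79.1% of all genes. Of the 7SK particle, 2 of 7 genes were tested. Mepce, which caps the 5′ end of 7SK, had 0.845, 1.51 and 0.869 RPKM in HuR 1 to 3, against 0.0575, 0.0798 and 0 RPKM in IgG 1 to 3 and 0.223 RPKM in Input, with a log2 fold change of 1.51 (SE 0.50, limma adjusted p = 0.079). Hexim1, the inhibitor of P-TEFb that 7SK binds, stood at 0.44 (adjusted p = 0.692).

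The signal recognition particle and its receptor had 7 of 11 gene names tested. All 7 were positive, at a median of 0.98, beside 79.1% positive and a median of 0.92 over all genes. Srpr, a subunit of the receptor, averaged 3.21 ± 0.90 RPKM in HuR and 0.822 ± 0.566 RPKM in IgG (SD, n = 3 each), and its log2 fold change was 1.57 (SE 0.75, limma adjusted p = 0.155). Srp54b, which encodes a copy of the signal-binding subunit, stood at 0.98 (adjusted p = 0.161), and Srp9, which binds the Alu domain of 7SL, at 0.99 (adjusted p = 0.192). Of the Y RNA binding proteins 3 of 9 names were tested, at a median of 0.38. Ybx1, a cold shock domain protein, had 5.09, 3.46 and 3.50 RPKM in HuR 1 to 3, against 0.599, 0.578 and 0.0157 RPKM in IgG 1 to 3 and 0.847 RPKM in Input. All HuR libraries lay above Input and all IgG libraries below it, and its log2 fold change of 2.39 (SE 0.73) had a limma adjusted p of 0.070. Ssb, which encodes La, stood at 0.38 (adjusted p = 0.661) and Ncl, which encodes nucleolin, at -0.10 (adjusted p = 0.927).

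The remaining lists had few tested genes. RNase P and RNase MRP had 1 of 12, Rpp25l, at -1.44 (limma adjusted p = 0.260), with 0 RPKM in 2 HuR libraries and 1 IgG library. The vault had 0 of 3. Of 18 RNA polymerase III subunits 2 were tested, Polr3k at 1.78 (adjusted p = 0.0707) and Polr2l, shared by the 3 nuclear polymerases, at 0.27 (adjusted p = 0.802). Of 18 genes for initiation factors and the repressor Maf1, 2 were tested, Gtf3c1 at 0.25 (adjusted p = 0.733) and Gtf3c4 at 0.20 (adjusted p = 0.775). Centred at library medians, Ybx1 (1.29), Polr3k (0.67), Srpr (0.47) and Mepce (0.40) stayed positive, and the other 9 genes named here were negative.

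The genes whose pattern over the 6 pull-down libraries was nearest to each RNA were ranked by the distance between log2(RPKM + 0.5) profiles centred at their means, among 4324 genes. Rpph1 had the closest of them outside its own locus, Ifnar1 (distance 0.171), a subunit of the type I interferon receptor, and Ccnd1 (0.223), which encodes cyclin D1. Both were low, at 0.0308 to 3.06 RPKM for Ifnar1 and 0.0247 to 2.50 RPKM for Ccnd1. The added 0.5 RPKM shrinks differences at such levels, so this nearness depends on it. The nearest to Rny3 were Cyp3a25 (0.468), a cytochrome P450 of liver, and Upb1 (0.473), an enzyme of pyrimidine breakdown. Next to Rn7sk came Aplp2 (0.680) and Serpinc1 (0.695), which encodes antithrombin. Both 7SL genes had Tst (0.862 from Rn7s1 and 0.834 from Rn7s2), which encodes a sulfurtransferase, and n-R5s62 (0.839 and 0.846), a copy of 5S ribosomal RNA. Vaultrc5 had n-R5s175 (0.670), another copy of it, and Mir30f (0.794). No gene came near Rny1, whose closest were AC136376.2 (2.27) and Uqcc2 (2.50). Upb1, Tst, both 5S copies, Mir30f and Uqcc2 were also low, none above 5.07 RPKM. The nearest to Rmrp were AL732506.1 and Ccdc107, which hold a share of its own reads. The 2 Y RNAs were not alike: the member nearest to Rny3 was Rn7sk (1.77), and that nearest to Rny1 was Rmrp (4.84).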

How the data were processed

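RIP-seq levels of mouse liver were analysed from the deposited exon table. The submitters' processing notes name Bowtie2, featureCounts and mm10; versions and read length are not stated there or in the labels. Deposited values are RPKM by the authors, with log2 fold columns over the Input mean and deposited p-values and q-values, which were not used. In numbers of 1 or more the decimal mark was missing; it was restored from the digits so as to match the 6 fold columns: among 138826 distinct lines, 138761 matched in 6 folds, 65 in 5, and 0 had more than 1 reading. The fold columns exchange HuR 2 and HuR 3 relative to the RPKM columns, whose names were followed. No column of per-sample values was left unused.

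Exon RPKM were multiplied by length, summed per gene and divided by merged exon length. Reads over several listed exons had been split between them, as the values show, and strand was not used where this could be seen, at Rmrp. Reads recovered per exon from the fixed step between values were whole within 0.05 in 99.5% to 99.9% of exons that overlap no other. Library sizes follow from that step. Split reads are not whole, so count models were left out.

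HuR was compared with IgG by limma 3.58.1 (R 4.3.3), on log2(RPKM + 0.5) values, with robust and trended moderation. Genes needed 0.5 RPKM in at least 3 of the 6 pull-down libraries, which left 5510; tests were two-sided and Benjamini-Hochberg adjusted over all of them, with a threshold of 0.05. Fold changes on this scale understate low genes. The fit was checked on simulated data with planted changes larger than those of these RNAs and no shift shared across a library. That check does not cover changes of their size. Ratios within a library used an exact permutation test. Sequences and positions come from GENCODE M21 (GRCm38), which holds 99.3% of the listed exons at the same coordinates; copies were found with blastn 2.17.0 (e-value 1e-10, 80% identity over 50% of the RNA). Other steps used Python 3.11.15.

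The sequence of 7SL is not reported here. The members, the gene lists and the tests were chosen with earlier results of these data known. Of each list of partner proteins, genes past the threshold and otherwise the 3 with the smallest p were named; for likeness, the 2 nearest genes, leaving out members, their copies and Gm, Rik and pseudogene names. Alternatives were other scalings, filters and pseudocounts, no trend, sample quality weights, a replicate block, leaving libraries out, the highest exon line, adding copies and putting back split reads.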

Additional observations from a re-analysis of the deposited data

How the results depend on the processing

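The 8 RNAs stayed short of the threshold under every alternative except Rny3 with sample quality weights (log2 fold change 1.95) and Vaultrc5 under TMM-like scaling (-2.67). The direction turned for Rn7sk when centred (-0.49), under TMM-like scaling (-1.01) and in the range over libraries left out (-0.11 to 1.17 for single libraries, 1.52 without HuR 3 and IgG 1 together). It turned for Rmrp when centred (-0.50), under TMM-like scaling (-1.03) and over libraries left out (-0.029 to 1.48 for single libraries, 1.78 without both). For Rny1 it turned when centred (-0.54), under TMM-like scaling (-0.54) and over libraries left out (-0.67 to 2.38). TMM-like scaling turned Rny3 (-0.25) and Rpph1 (-0.24), and quantile normalization turned Rn7s1 (0.25) and Rn7s2 (0.22). Rny1 over Rny3 reversed with copies added (0.92), where the Y1 level in HuR 1 came from the Fpgt line alone. This ratio ranged from -2.32 to 1.39 over libraries left out. The cause of these turns was not tested. With levels rescaled outside the ribosomal repeat, 2 RNAs were above Input in all HuR libraries and 3 in all IgG libraries, with no share over all genes to set beside them. The share taken by the 8 RNAs was 4.25% in HuR and 6.44% in IgG outside the ribosomal repeat, and 5.72% in HuR and 6.28% in IgG with split reads put back.

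Genes called higher and lower were 37 and 7, against 1 and 18 when centred, 50 and 342 under TMM-like scaling, 5 and 4 with quantile normalization, 152 and 55 when rescaled, 0 and 0 with no filter, 145 and 21 with a filter of 1 RPKM, 3 and 1 with a pseudocount of 1, 4 and 1 with no trend, 2296 and 84 with sample quality weights, 1 and 0 with the highest exon line, and 0 and 0 without HuR 3 and IgG 1 together. Leaving out libraries gave 0 to 724 higher and 0 to 35 lower: 15 higher without HuR 1, 90 without HuR 2, 72 without HuR 3, 724 without IgG 1 and 0 without IgG 2. At an unadjusted p under 0.05, 1539 genes were higher and 176 lower. Among partner proteins, 5 were called higher with sample quality weights and up to 2 with a library left out. With the replicate block, 0 genes were called higher and 0 lower, no RNA changed its call, and Rpph1 kept 1.39 (limma adjusted p = 0.201). Same-numbered HuR and IgG libraries deviated together by correlations of 0.138, 0.117 and 0.086, and each correlated best with its own number. The headers give same-numbered libraries the same letter, but the labels do not say that a number marks a shared animal. In IgG 2 (M), Xist was 0.103, Ddx3y 0.0558 and the Y-linked Eif2s3y 0.247 RPKM. In IgG 3 (F) they were 0.359, 0 and 0 RPKM. These low values go with the IgG letters, while those of HuR 2 and HuR 3 go against theirs. A shared number or letter thus does not show a shared animal. If HuR 2 and HuR 3 were exchanged, the correlations would be -0.0015 (HuR 2 with IgG 3) and -0.068 (HuR 3 with IgG 2), and the block would be another.

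Depth limits the Y RNAs most, with 0 to 151 reads a library, and 3 libraries a group limit every exact test to p = 0.1.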
